A study of Mus musculus with 10 samples.

Results

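The transcripts followed here are those of 10 genes of the mitotic engine: the kinase Cdk1, its cyclins Ccna2, Ccnb1 and Ccnb2, and the kinases Plk1, Aurka, Aurkb, Nek2, Mastl and Wee1. They were picked by symbol, are 10 of the 48795 genes listed in the deposited count table, and all 10 passed the filter on low counts that left 12859 genes for testing. RNA-seq was performed on neural stem and progenitor cells (NSC/NPCs) cultured from the subependymal zone of the adult mouse brain at 10 weeks of age. Proliferating cells (PRO) were floating neurospheres kept for 3 DIV (days in vitro) with 20 ng/ml EGF and 10 ng/ml FGF. Differentiating cells (DIFF) were plated on Matrigel at 40000 cells/cm2 for 2 DIV with FGF, and were then held for 1 DIV, or 24 h, without mitogens in 2% FBS (2 + 1 DIV). There were 3 wild-type (WT) libraries and 2 libraries labelled p27KO at each stage, the latter from mice with a germline deletion of Cdkn1b, the gene of the cyclin-dependent kinase inhibitor p27. Attachment, mitogen loss and serum changed together between the stages, so that their parts in any stage difference cannot be told apart. Nothing in the labels says whether the libraries of a group came from separate mice or cultures, and p-values therefore measure the spread between these libraries.

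CDK1 drives entry into mitosis when it is bound to cyclin A or cyclin B, and it is held back by WEE1, which phosphorylates it. PLK1 and the Aurora kinases build the spindle and, with Aurora B at centromeres, correct chromosome attachment, NEK2 separates the centrosomes, and MASTL (Greatwall) keeps the opposing phosphatase PP2A-B55 switched off during mitosis. Most of these genes are transcribed in G2 and M phase under the MuvB, B-MYB and FOXM1 factors and are silenced in quiescent cells, so that their transcripts are used as a mark of cycling progenitors in the subependymal zone.

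Cdkn1b itself was examined first. Its level is given in CPM (counts scaled to the total of the tested genes in a library, with TMM factors). It ranged from 103 to 113 in WT neurospheres and from 204 to 209 in WT cells at 2 + 1 DIV. In the libraries labelled p27KO, Cdkn1b was read at 94.1 and 114.7 in neurospheres and at 137 and 142 at 2 + 1 DIV. Its counts were thus not lost in any library labelled p27KO, although they were lower than in WT at 2 + 1 DIV by 0.56 ± 0.09 on the log2 scale (SE, quasi-likelihood test of edgeR, adjusted p = 0.012). A count per gene does not show which exons the reads came from. The free-text descriptions of these libraries also speak of WT cells, while their titles and genotype field give p27KO, so that they are called the libraries labelled p27KO here. Xist, the RNA of the inactive X chromosome, ran from 2276 to 3632 normalized CPM in them and reached at most 2.61 in WT libraries. The 4 Y-linked genes Ddx3y, Eif2s3y, Kdm5d and Uty summed to 188 to 526 in WT and to at most 0.584 in the libraries labelled p27KO, and sex and genotype label therefore cannot be told apart. Library totals ranged from 19190068 to 25291674 counts, and the scaling factors from 0.968 to 1.02.

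Of the markers of the labelled cell type, all 8 neural stem and progenitor genes were above 1 CPM in every group, with a summed level between 6881 and 8411 normalized CPM. The sum of 7 astrocyte markers was 870 to 1241 in neurospheres and 2641 to 3253 at 2 + 1 DIV, with the genotypes overlapping at both stages. That of 7 neuroblast and neuron markers was 1226 to 1509 in WT neurospheres, 1574 to 1866 in those labelled p27KO, 1462 to 1690 in WT cells at 2 + 1 DIV and 2023 to 2133 in those labelled p27KO. Oligodendrocyte lineage markers summed to 76.5 to 172 over all libraries, with Sox10 and Mag at 0 in the neurospheres labelled p27KO, and 5 ependymal markers summed to 15.5 to 21.9 in neurospheres and 87.4 to 105 at 2 + 1 DIV. Microglia markers never passed a sum of 0.590, the endothelial genes Cdh5 and Cldn5 were at 0 in all 10 libraries, and mural cell and fibroblast markers summed to at most 10.7. The endothelial list as a whole summed to 5.59 to 50.7. The part of these other cell types in the values below was not tested. Mki67, a marker of cycling cells, ran from 797 to 909 normalized CPM in WT neurospheres. In WT cells at 2 + 1 DIV it ran from 68.8 to 116. It ran from 896 to 990 in neurospheres labelled p27KO, and from 313 to 364 in those cells at 2 + 1 DIV. The study reports a higher proportion of EdU-incorporating cells in its mutant cultures after mitogen withdrawal. The share of cycling cells in these libraries was not tested. In these bulk samples, fewer cycling cells and less of a transcript per cell cannot be told apart.

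Promoter motifs of the members are described here, and their part in the changes given below was not tested. RefSeq promoter windows on GRCm38.p6, from 250 bases before to 50 bases after the start, were found for 7 of the 10 members, and not for Ccna2, Aurkb and Wee1. They were searched on both strands for the cell cycle genes homology region (CHR, TTTGAA or TTTAAA), which MuvB complexes bind, for the CCAAT box (CCAAT), which NF-Y binds, and for an E2F core (TTNNCGC, with N any base). A CCAAT box was present in 7 of 7 windows, against 37.4% of the 32851 windows of all genes. A CHR was present in 5 of 7, namely Cdk1, Ccnb1, Ccnb2, Plk1 and Aurka, against 27.6% of all windows, and an E2F core in 2 of 7 (Cdk1 and Ccnb1) against 20.2%. Both CHR matches of Aurka lay past the start, with first bases at 18 and 33 from it. Those of Ccnb2 were at -167 and 5. CHR and CCAAT box stood together in 5 of 7 windows and in 10.7% of all. At least 2 CCAAT boxes were present in 5 of 7 member windows and in 11.7% of all windows. The stretches of 140 bases that end just before the first annotated start are given below for Ccnb2 (chr9:70421555-70421694, minus strand), Cdk1 (chr10:69352939-69353078, minus strand), Plk1 (chr7:122159295-122159434, plus strand) and Aurka (chr2:172370571-172370710, minus strand), the members that best show the spacing and the combinations of motifs. Each reads 5′ to 3′ on the strand of its gene, with motif matches in capitals.
Ccnb2: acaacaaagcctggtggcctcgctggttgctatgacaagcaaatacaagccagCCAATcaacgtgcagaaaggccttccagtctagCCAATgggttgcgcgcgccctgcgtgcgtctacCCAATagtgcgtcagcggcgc
Cdk1: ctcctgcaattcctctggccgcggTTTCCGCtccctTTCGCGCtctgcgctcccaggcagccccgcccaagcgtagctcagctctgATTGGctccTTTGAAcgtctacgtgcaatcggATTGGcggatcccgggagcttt
Plk1: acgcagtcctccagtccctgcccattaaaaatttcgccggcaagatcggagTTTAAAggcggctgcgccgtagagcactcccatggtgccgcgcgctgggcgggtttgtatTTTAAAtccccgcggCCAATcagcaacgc
Aurka: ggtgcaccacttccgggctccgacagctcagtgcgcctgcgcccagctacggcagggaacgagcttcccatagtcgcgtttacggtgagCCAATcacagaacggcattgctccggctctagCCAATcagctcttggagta
The capitals in Ccnb2 are 3 CCAAT boxes, whose first bases lie at -87, -54 and -21 from the RefSeq start. Those in Cdk1 are E2F cores at -142 and -130, CCAAT boxes on the opposite strand, which read ATTGG, at -80 and -48, and a CHR at -71. In Plk1 they mark CHR matches at -89 and -29 and a CCAAT box at -14, and in Aurka CCAAT boxes at -51 and -19. The stretches of Ccnb2 and Aurka hold no CHR match. Neighbouring CCAAT boxes on one strand were 33 and 33 bases apart in Ccnb2, 32 in the shown part of Cdk1, 32 in Aurka, 32 in Ccnb1 and 33 in Nek2. This spacing was noticed after the windows had been read. A spacing of 32 or 33 bases occurred in 5 of the 7 member windows, in 160 of all 32851 windows (0.487%), and in 6.04% of the 2648 windows with at least 2 boxes on one strand. The E2F core of Ccnb1 at -102 overlaps its CCAAT box at -99. Such a match describes letters in a window and not a bound site.

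**Figure D1:**
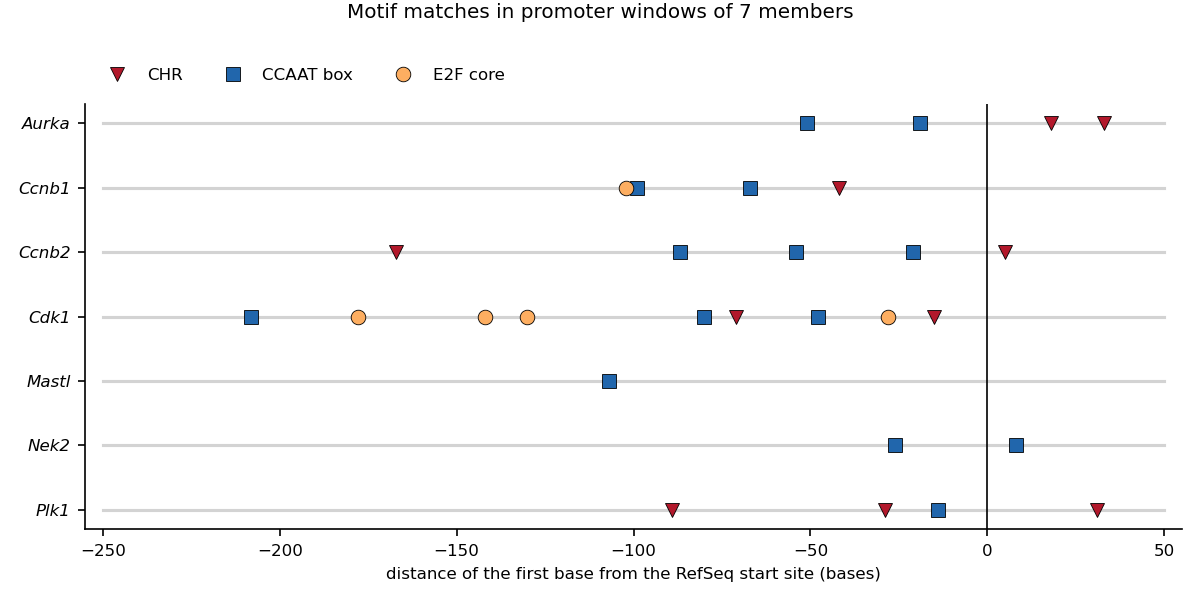
Positions of motif matches in the RefSeq promoter windows of 7 members, with the distance of each match's first base from the start site in bases on the horizontal axis and one line per gene. Triangles are CHR matches, squares CCAAT boxes on either strand and circles E2F cores; every line carries at least 1 square, and the paired squares of Aurka, Ccnb1, Ccnb2, Cdk1 and Nek2 sit 32 or 33 bases apart.

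All 10 members fell from neurospheres to 2 + 1 DIV in WT cells, and all 10 also fell in the cells labelled p27KO, but by less. The median log2 fold change over the 10 was -3.34 in WT and -1.83 in the libraries labelled p27KO, against -0.00 and -0.03 over all tested genes. Genes lower at 2 + 1 DIV were common, at 33.9% of all tested genes in WT and 30.2% in those labelled p27KO. For each of the 10 the libraries of both stages did not overlap, in either genotype. The same absence of overlap, in the direction of lower at 2 + 1 DIV, was found for 36.3% of tested genes in WT and 41.2% in the libraries labelled p27KO. The log2 fold changes and standard errors (SE) below come from the quasi-likelihood test of edgeR, with Benjamini-Hochberg adjusted p over the 12859 genes and a threshold of 0.05.

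**Figure D2:**
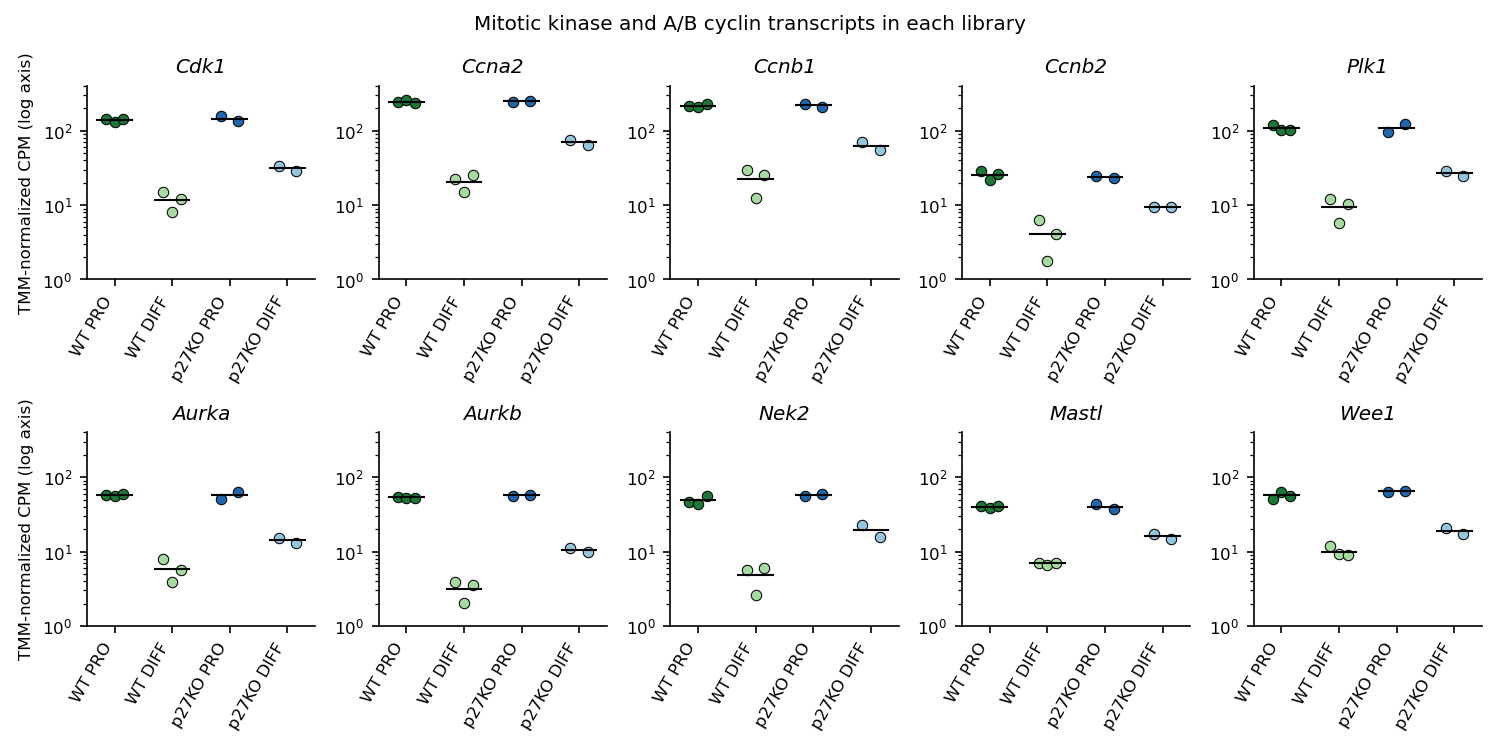
TMM-normalized CPM of each of the 10 genes on a log axis, with 1 point per library, the mean of each group as a horizontal bar, and n = 3 for WT and n = 2 for p27KO groups. The neurosphere groups of both genotypes overlap for 8 of the 10 genes, with both labelled p27KO libraries above WT for Aurkb and Wee1, the WT libraries at 2 + 1 DIV are lowest in every panel, and those labelled p27KO lie between.

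Cdk1 (ENSMUSG00000019942, GRCm38 chr10:69335146-69352938, minus strand) encodes the kinase that triggers mitosis. Its normalized CPM was 146, 133 and 145 in WT neurospheres and 14.9, 8.05 and 12.2 in WT cells at 2 + 1 DIV. In the libraries labelled p27KO it was 158 and 135 in neurospheres and 34.0 and 28.8 at 2 + 1 DIV. Both neurosphere groups overlapped, whereas at 2 + 1 DIV the lower library labelled p27KO stood above the highest WT library. The fall of Cdk1 had a log2 fold change of -3.60 ± 0.20 in WT (12.1-fold lower, adjusted p = 3.85e-07 from edgeR) and of -2.22 ± 0.22 in those labelled p27KO (4.65-fold lower, adjusted p = 3.34e-05).

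Ccna2 (ENSMUSG00000027715, chr3:36564865-36572150, minus strand) encodes cyclin A2, which partners CDK2 in S phase and CDK1 in G2. It was read at 246, 259 and 237 normalized CPM in WT neurospheres and at 22.2, 14.9 and 25.2 in WT cells at 2 + 1 DIV. The libraries labelled p27KO gave 246 and 255 in neurospheres and 74.3 and 64.8 at 2 + 1 DIV. The neurospheres labelled p27KO thus lay within the WT range, and the groups at 2 + 1 DIV were well apart. The fall was 11.9-fold in WT (log2 fold change -3.57 ± 0.17 SE) and 3.60-fold in the libraries labelled p27KO (-1.85 ± 0.19). The gene shares 431 bases with Exosc9 on the opposite strand, which had 610 to 1744 counts per library. In WT cells at 2 + 1 DIV Exosc9 had 610 to 870 counts, against 354 to 649 for Ccna2. Since no source states whether counting used the strand, reads from the shared stretch are uncertain. Their part in the level of Ccna2 was not tested.

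The B-type cyclins, which carry CDK1 into mitosis, both fell. Ccnb1 (ENSMUSG00000041431, chr13:100778650-100786570, minus strand) stood at 212, 209.6 and 233 normalized CPM in WT neurospheres and at 29.6, 12.6 and 25.3 in WT cells at 2 + 1 DIV. Its levels in the libraries labelled p27KO were 231 and 209 in neurospheres and 69.7 and 55.2 at 2 + 1 DIV. WT replicate 2 at 2 + 1 DIV was the low library here. Ccnb2 (ENSMUSG00000032218, chr9:70407692-70421547, minus strand) was read at 28.9, 21.8 and 26.2 in WT neurospheres and at 6.28, 1.77 and 4.15 in WT cells at 2 + 1 DIV. It was read at 24.4 and 23.4 in neurospheres labelled p27KO, and at 9.45 and 9.48 in those cells at 2 + 1 DIV. Among WT libraries at 2 + 1 DIV, Ccnb2 had the widest relative spread of the members, with 42 to 125 counts. The log2 fold change of Ccnb1 was -3.28 ± 0.27 in WT and -1.82 ± 0.31 under the p27KO label, and that of Ccnb2 was -2.67 ± 0.35 and -1.34 ± 0.40. The fall of Ccnb2 in the libraries labelled p27KO had the highest adjusted p of the 10 (0.0169 from edgeR) and lost its call without p27KO DIFF replicate 1 (0.0756), DIFF replicate 2 (0.0736) or PRO replicate 1 (0.0565). Ccnb1 has near-identical processed pseudogenes, of which Ccnb1-ps (99.2% identical over 1287 bases) had 0 to 16 counts and Gm12856 (98.1% over 1294 bases) 0 to 8 per library, so that a small share of reads could have been split between them. The annotated pseudogene Ccnb2-ps was not among the near-identical copies found, but it moved opposite to Ccnb2 in WT. It had 91 to 111 counts in WT neurospheres and 221 to 328 in WT cells at 2 + 1 DIV. In the libraries labelled p27KO it had 174 and 99 in neurospheres and 269 and 265 at 2 + 1 DIV. Its part in the counts of Ccnb2 was not tested.

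Wee1 (ENSMUSG00000031016, chr7:110122046-110143286, plus strand) encodes the kinase that restrains CDK1. Its normalized CPM was 51.5, 63.6 and 55.4 in WT neurospheres and 11.8, 9.32 and 8.96 in WT cells at 2 + 1 DIV, and in the libraries labelled p27KO it was 64.3 and 64.7, and then 20.6 and 17.3. Of the 10 members Wee1 had the smallest fall in WT, 5.68-fold (log2 fold change -2.51 ± 0.13), while its fall in the libraries labelled p27KO, 3.40-fold (-1.76 ± 0.16), ranked among those of the other members. The antisense gene 1600010M07Rik overlaps its locus.

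Plk1 (ENSMUSG00000030867, chr7:122159439-122169873, plus strand) encodes the polo kinase of spindle assembly and mitotic exit. It was at 118, 104 and 103 normalized CPM in WT neurospheres and at 12.1, 5.69 and 10.2 in WT cells at 2 + 1 DIV. The libraries labelled p27KO gave 97.0 and 124 in neurospheres, which straddle the WT values, and 28.5 and 24.9 at 2 + 1 DIV, which lie above them. Its log2 fold change was -3.54 ± 0.24 in WT and -2.05 ± 0.27 in the libraries labelled p27KO. A provisional (TEC) gene on the opposite strand, Gm44985, shares 158 bases with it and had 0 to 5 counts.

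Aurka (ENSMUSG00000027496, chr2:172356190-172370535, minus strand) encodes the centrosomal and spindle Aurora kinase. It was read at 57.7, 56.5 and 60.4 normalized CPM in WT neurospheres, at 7.89, 3.96 and 5.66 in WT cells at 2 + 1 DIV, at 51.5 and 62.8 in neurospheres labelled p27KO and at 15.3 and 13.2 in those cells at 2 + 1 DIV. Aurkb (ENSMUSG00000020897, chr11:69045647-69051664, plus strand) encodes the centromeric Aurora kinase of the chromosomal passenger complex. Its values were 55.1, 52.9 and 53.2 in WT neurospheres, 3.87, 2.07 and 3.61 in WT cells at 2 + 1 DIV, 55.9 and 58.0 in neurospheres labelled p27KO, and 11.3 and 9.88 in those cells at 2 + 1 DIV. At 2 + 1 DIV the genotypes did not overlap for either gene, while in neurospheres Aurka overlapped and Aurkb was slightly higher in both libraries labelled p27KO. Aurkb had the largest fall of the 10 in both genotypes, 16.9-fold in WT (log2 fold change -4.08 ± 0.19) and 5.38-fold in the libraries labelled p27KO (-2.43 ± 0.21). Aurka fell by 3.32 ± 0.21 and 2.00 ± 0.24.

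Nek2 (ENSMUSG00000026622, chr1:191821444-191833050, plus strand) encodes the kinase that parts the centrosomes. It was at 47.0, 43.3 and 56.4 normalized CPM in WT neurospheres, and at 5.63, 2.61 and 6.09 in WT cells at 2 + 1 DIV. It was at 56.0 and 59.7 in neurospheres labelled p27KO, and at 22.7 and 15.9 in those cells at 2 + 1 DIV. The log2 fold change of Nek2 was -3.36 ± 0.28 in WT and -1.58 ± 0.31 under the p27KO label. Its antisense neighbour Gm38037, which shares 298 bases with it, had 1 to 23 counts. Mastl (ENSMUSG00000026779, chr2:23115606-23156024, minus strand) encodes the Greatwall kinase. Its values were the tightest of the members at 2 + 1 DIV in WT, at 7.08, 6.70 and 7.02, against 41.1, 38.7 and 41.4 in WT neurospheres. In the libraries labelled p27KO they were 43.7 and 37.2 in neurospheres and 17.3 and 14.9 at 2 + 1 DIV. Its log2 fold change was -2.54 ± 0.10 in WT and -1.33 ± 0.12 under the p27KO label.

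The members varied together within a group. At 2 + 1 DIV, WT replicate 2 had the lowest normalized CPM for 9 of the 10 and WT replicate 1 the highest for 8. In the same stage, p27KO replicate 2 was the lower for 9 of 10. In WT neurospheres replicate 2 was lowest for 7 of 10. The 10 genes are therefore not 10 independent readings of a condition, and the count of members past the threshold moves with single libraries.

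At 2 + 1 DIV, 9 of the 10 members were higher in the libraries labelled p27KO than in WT, against 1.91% of all tested genes higher in this comparison. The exception was Ccnb2, with a difference of 1.23 ± 0.37 on the log2 scale (edgeR, adjusted p = 0.164). The median difference over the members was 1.45, against -0.01 over all tested genes. The largest was that of Nek2, 4.04-fold higher (log2 difference 2.01 ± 0.30, adjusted p = 0.00772), then Ccna2 at 3.35-fold (1.74 ± 0.17) and Aurkb at 3.33-fold (1.74 ± 0.20). Mastl was 2.32-fold higher (1.21 ± 0.11) and had the lowest adjusted p of the members, 0.000658 in the same edgeR test. Wee1 showed the smallest difference, 1.90-fold (0.92 ± 0.14). For 10 of 10 members the libraries labelled p27KO lay wholly above the WT libraries, as they did for 18.8% of all tested genes. Without p27KO DIFF replicate 1 the count was 3, and without replicate 2 it was 6. A fit of only the 5 libraries at 2 + 1 DIV called 1 member, Mastl.

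In neurospheres none of the 10 members differed between the genotypes by edgeR's quasi-likelihood test, at an unadjusted p under 0.05 or after adjustment, and DESeq2 called none either, against 0.0156% of all tested genes higher. The differences, labelled p27KO minus WT on the log2 scale, ran from -0.10 ± 0.35 for Ccnb2 to 0.24 ± 0.28 for Nek2, with a median of 0.02. Those of Mastl (0.00 ± 0.11), Ccnb1 (0.01 ± 0.27) and Ccna2 (0.02 ± 0.17) were near 0, with standard errors that leave room for small differences in either direction. For 6 members the sign of this difference changed under at least 1 of 17 alternatives. For 2 of 10 members the libraries of both genotypes did not overlap, which is near the share of 16.8% over all tested genes.

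**Figure D3:**
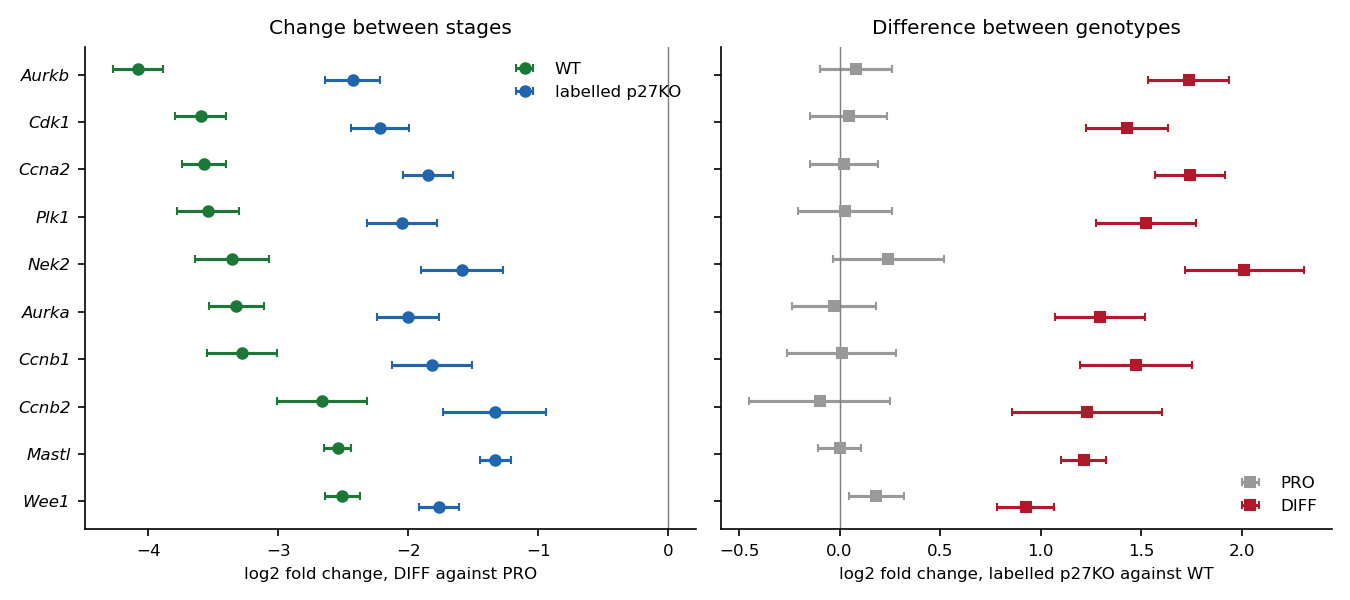
Fitted log2 fold changes of the 10 genes with bars of 1 SE, from 3 WT and 2 labelled p27KO libraries per stage. At the left, the change from PRO to DIFF is further below 0 in WT (-4.08 to -2.51) than in the libraries labelled p27KO (-2.43 to -1.33); at the right, the difference between genotypes lies around 0 in PRO and between 0.92 and 2.01 in DIFF.

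The question whether the fall itself differed between the genotypes was put to the interaction of genotype and stage, which uses the same libraries as the comparison at 2 + 1 DIV and is no independent evidence beside it. All 10 members had a smaller fall in the libraries labelled p27KO, with a median interaction of 1.42 on the log2 scale, against -0.01 over all tested genes. The interaction passed the threshold for 3 of the 10, compared with 0.389% of all tested genes. These were Ccna2 (1.72 ± 0.25, adjusted p = 0.0230), Mastl (1.21 ± 0.16, adjusted p = 0.0230) and Aurkb (1.65 ± 0.27, adjusted p = 0.0399), all by edgeR. The estimates that did not pass were of like size, at 1.77 ± 0.41 for Nek2, 1.49 ± 0.34 for Plk1, 1.46 ± 0.39 for Ccnb1, 1.38 ± 0.28 for Cdk1, 1.33 ± 0.52 for Ccnb2 and 1.32 ± 0.31 for Aurka, with larger standard errors. Wee1 had the smallest, 0.74 ± 0.20. With the replicate number as a block, Ccna2, Mastl and Cdk1 (adjusted p = 0.0472) passed in edgeR's test, and Aurkb did not (0.0577). With the number as a block within each genotype, Mastl alone passed in that test (adjusted p = 0.0310), Ccna2 (0.0850) and Aurkb (0.0723) did not, and neither did Cdk1. DESeq2 called 9 of the 10, all but Ccnb2. The count was 5, 7 and 2 without WT DIFF replicate 1, 2 and 3, and 0 without any 1 of the 3 WT PRO or the 4 labelled p27KO libraries, where 9 or 10 members kept an unadjusted p under 0.05. The interaction was positive for all 10 members in each fit with a library left out.

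Per kilobase of the longest coding transcript, the order of levels in WT neurospheres was Ccnb1 (87.6 ± 5.06 normalized CPM per kb, SD, n = 3), Ccna2 (83.4 ± 3.64), Plk1 (49.2 ± 3.89), Cdk1 (32.3 ± 1.66), Aurka (30.6 ± 1.06), Aurkb (27.6 ± 0.602), Ccnb2 (16.7 ± 2.32), Wee1 (16.6 ± 1.81), Nek2 (15.2 ± 2.10) and Mastl (7.23 ± 0.269). The libraries of neighbours overlapped for 4 of the 9 pairs, namely Ccnb1 with Ccna2, Cdk1 with Aurka, and Ccnb2 with Wee1 and Wee1 with Nek2. In WT cells at 2 + 1 DIV, Ccnb1 was still first at 9.05 ± 3.56 and Mastl last at 1.24 ± 0.0366, and all 9 pairs of neighbours overlapped. In the libraries labelled p27KO at that stage, Ccnb1 was at 25.1 ± 4.10 per kb, Ccna2 at 23.5 ± 2.25, Plk1 at 12.1 ± 1.16 and Mastl at 2.88 ± 0.298 (SD, n = 2). Wee1 moved from rank 8 in WT neurospheres to rank 5 in WT cells at 2 + 1 DIV, and Aurkb from rank 6 to rank 8. Divided by the length of all exons of a gene instead, Ccna2 (60.6 per kb) stood above Ccnb1 (51.7) in WT neurospheres, and Nek2 (1.06) and not Mastl (1.20) was lowest in WT cells at 2 + 1 DIV.

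Ratios between members within a library do not depend on how libraries are scaled, and 4 were compared between the stages by an exact permutation test of stage within genotype (two-sided, 120 arrangements, smallest possible p = 0.0167, adjusted over the 4 ratios). Stage was shuffled freely among WT libraries in this test, without the pairing by replicate number that an alternative below uses. The log2 ratio of Wee1 to Cdk1, the inhibitor over its kinase, was -1.50, -1.06 and -1.39 in WT neurospheres and -0.34, 0.21 and -0.44 in WT cells at 2 + 1 DIV. It was -1.29 and -1.06 in neurospheres labelled p27KO and -0.72 and -0.73 in those cells at 2 + 1 DIV. No library at 2 + 1 DIV overlapped the neurospheres of its genotype. The ratio was higher at 2 + 1 DIV by 0.86 on the log2 scale, in 5 of 5 libraries against the neurosphere range (exact permutation p = 0.0167, adjusted p = 0.0222). The rise was 1.13 in WT and 0.45 in the libraries labelled p27KO, and the difference between these rises was not tested.

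The paralogs also shifted against each other. The log2 ratio of Aurka to Aurkb was 0.07, 0.09 and 0.18 in WT neurospheres and 1.02, 0.93 and 0.65 in WT cells at 2 + 1 DIV, and -0.12 and 0.11 and then 0.44 and 0.42 in the libraries labelled p27KO. It was higher at 2 + 1 DIV by 0.63 (exact permutation p = 0.0167, adjusted p = 0.0222), with no overlap of the stages in either genotype. The log2 ratio of Ccnb1 to Ccnb2 was 2.88, 3.26 and 3.15 in WT neurospheres and 2.23, 2.82 and 2.60 in WT cells at 2 + 1 DIV. In the libraries labelled p27KO it was 3.24 and 3.16 and then 2.88 and 2.54. It was lower at 2 + 1 DIV by 0.52 (exact permutation p = 0.0167, adjusted p = 0.0222). Ccna2 over Ccnb1, the cyclin of S and G2 phase over that of mitosis, changed by -0.16, with overlapping libraries and an exact permutation p of 0.267. In an alternative chosen after seeing the data, stage was exchanged in WT only within same-numbered pairs. Each of the 3 ratios that shifted then had an exact permutation p of 0.0417, the smallest that its 48 arrangements allow. Their adjusted p of 0.0556 did not pass the threshold. With Ccna2 over Ccnb1 at p = 0.25 in this permutation test, larger shifts could not have passed either, so that the pairing cannot decide whether these shifts hold.

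**Figure D4:**
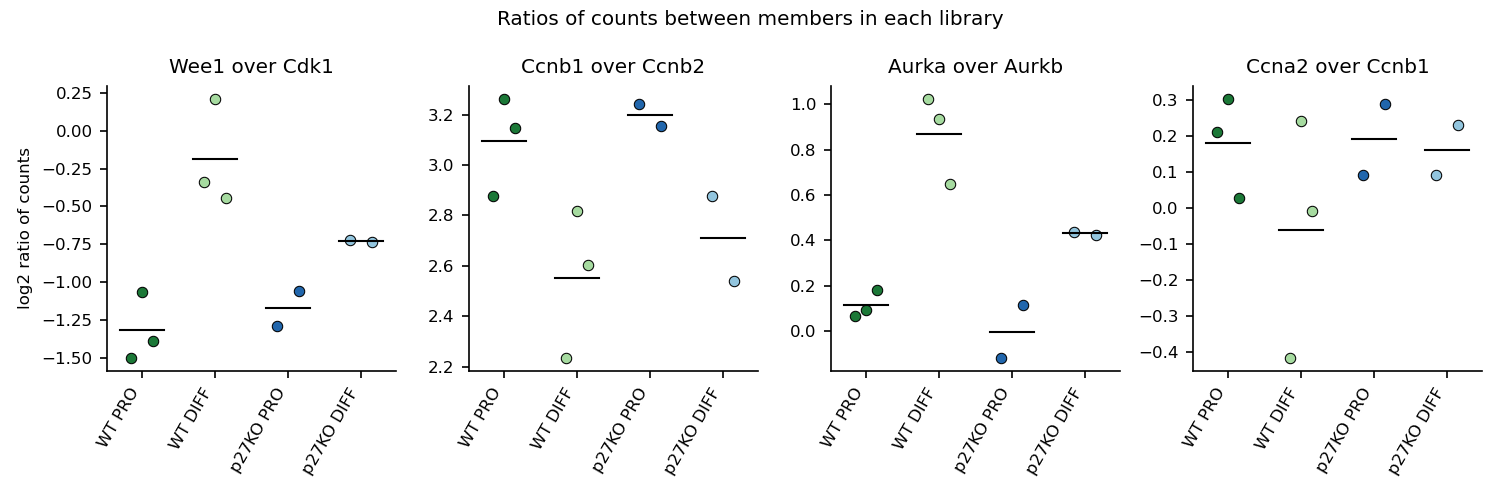
Log2 ratio of the counts of 2 members in each library, with 1 point per library and the group mean as a bar, for WT (n = 3) and labelled p27KO (n = 2) groups; each panel has its own vertical axis. Wee1 over Cdk1 and Aurka over Aurkb are higher in both DIFF groups than in the PRO groups of the same genotype, Ccnb1 over Ccnb2 is lower, and Ccna2 over Ccnb1 overlaps.

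Of 11 other genes that control cyclin-CDK1, 8 were tested, and 7 fell in WT and 7 in the libraries labelled p27KO, while Cdc25b did not pass in either. Ccna1, Ccnb3 and Wee2, the germline relatives, stayed below 1 CPM in every library and were not tested. The 4 with the largest falls in WT were Ccnf, a cyclin that acts in a ubiquitin ligase (log2 fold change -3.41 ± 0.19 in WT and -2.16 ± 0.22 in the libraries labelled p27KO), Pkmyt1, a membrane-bound relative of WEE1 (-3.24 ± 0.24 and -2.80 ± 0.29), Cdc25c, the phosphatase that activates CDK1 (-3.21 ± 0.27 and -1.36 ± 0.30), and Cks2, a CDK-binding subunit (-2.88 ± 0.23 and -1.66 ± 0.26). Their normalized CPM in WT at 2 + 1 DIV was 6.11 ± 1.80, 1.42 ± 0.140, 2.68 ± 1.22 and 4.34 ± 1.52 (SD, n = 3). In the interaction 0 of the 8 passed by edgeR, 5 had an unadjusted p under 0.05 and 3 were called by DESeq2, and Cdc25c had the largest estimate (1.85 ± 0.39) while Pkmyt1 had one of 0.44 ± 0.37. At 2 + 1 DIV 3 of the 8 were higher in the libraries labelled p27KO, Ccnf, Cdc25c and Cks2, against 1.91% of all tested genes. The shares of all tested genes that fell were 33.9% in WT and 30.2% in the libraries labelled p27KO.

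The substrates of Mastl and the phosphatase they inhibit changed little. Over all tested genes, the shares that fell were 33.9% in WT and 30.2% in the libraries labelled p27KO. Of 7 genes, 5 fell in WT and 4 in the libraries labelled p27KO, with medians of -0.38 and -0.34 on the log2 scale, and 0 passed in the interaction by edgeR (median -0.01), with 0 at an unadjusted p under 0.05 and 0 by DESeq2. The largest falls in WT were those of the B55 subunits Ppp2r2a (-0.77 ± 0.09) and Ppp2r2d (-0.60 ± 0.08), the catalytic subunit Ppp2cb (-0.48 ± 0.07) and the inhibitor Ensa (-0.38 ± 0.09). Ensa stood at 101 ± 2.94 normalized CPM in WT neurospheres and at 77.9 ± 4.77 in WT cells at 2 + 1 DIV, whereas Mastl, which phosphorylates it, fell 5.82-fold.

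Partners of the Aurora kinases and Plk1 followed the members more closely. Of 8 genes, 7 fell in each genotype, with medians of -2.73 in WT and -1.51 in the libraries labelled p27KO. The Aurora B partners of the chromosomal passenger complex all passed in the interaction, Birc5 (1.62 ± 0.25), Cdca8 (1.69 ± 0.27) and Incenp (1.21 ± 0.19), as did Aurkb itself. The normalized CPM of Birc5 went from 59.3 ± 1.46 to 4.37 ± 1.21 in WT (SD, n = 3) and from 60.2 ± 3.94 to 13.6 ± 0.879 in the libraries labelled p27KO (SD, n = 2). That of Incenp went from 147 ± 2.86 to 17.5 ± 2.86 and from 145 ± 9.59 to 40.0 ± 6.03. Tpx2, the activator of Aurora A, fell from 245 ± 13.3 to 35.3 ± 13.0 in WT, with an interaction of 1.55 ± 0.35 that did not pass. Ajuba, a LIM-domain protein that also binds Aurora A, went the other way and rose in both genotypes, by 0.67 ± 0.15 and 1.02 ± 0.18. Of the 8, 5 were higher at 2 + 1 DIV in the libraries labelled p27KO, against 1.91% of all tested genes. Falls were found for 33.9% of all tested genes in WT and 30.2% in those labelled p27KO. In the interaction 0.389% of all tested genes passed in this direction.

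Of 15 other kinases of mitosis and family relatives, 14 were tested, Aurkc being too low, and 12 fell in each genotype (medians -2.68 and -1.80). The checkpoint kinases Bub1 (1.88 ± 0.26) and Ttk (1.58 ± 0.24) and the kinase Pbk (1.77 ± 0.23) passed in the interaction. Bub1 fell from 76.8 ± 3.48 to 5.96 ± 1.78 normalized CPM in WT and from 79.0 ± 6.79 to 22.4 ± 1.31 in the libraries labelled p27KO. Melk had the largest fall of the list in WT, -4.07 ± 0.22, with an interaction of 1.64 ± 0.31 that did not pass. Nek9 rose by 0.56 ± 0.09 in WT and 0.57 ± 0.11 in the libraries labelled p27KO, in contrast to its family member Nek2. Of the 14, 6 were higher at 2 + 1 DIV in the libraries labelled p27KO, against 1.91% of all tested genes. Falls were found for 33.9% of all tested genes in WT and 30.2% in those labelled p27KO, and 0.389% passed in the interaction.

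Among 9 transcription factor genes that act on G2/M promoters, 7 fell in WT and 6 in the libraries labelled p27KO. The shares over all tested genes were 33.9% and 30.2%. Foxm1, the forkhead activator, fell from 136 ± 2.20 to 14.5 ± 1.65 normalized CPM in WT and from 138 ± 32.7 to 36.3 ± 3.39 in the libraries labelled p27KO, and was the 1 gene of the list past the threshold in the interaction (1.31 ± 0.21). Mybl2, the gene of B-MYB, had the largest fall, -4.11 ± 0.16 in WT and -3.08 ± 0.18 in the libraries labelled p27KO, and its interaction of 1.03 ± 0.23 did not pass. The MuvB subunits Lin54 (-1.30 ± 0.10 in WT) and Lin9 (-1.21 ± 0.14) fell less, and Lin52 rose by 1.05 ± 0.09 in WT and 1.09 ± 0.11 in the libraries labelled p27KO. Across the 5 lists, all 7 genes past the threshold in the interaction kept a positive estimate in each alternative. With the replicate number as a block 4 of the 7 passed (Birc5, Bub1, Pbk and Ttk), and with the number as a block within each genotype 2 passed (Bub1 and Ttk, each with an adjusted p of 0.0310 from edgeR), while Birc5 and Pbk did not (0.0582 each). Further, 4 passed without WT DIFF replicate 3, 1 (Pbk) without WT PRO replicate 1, and 0 without any of the 2 other WT PRO or the 4 labelled p27KO libraries.

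**Figure D5:**
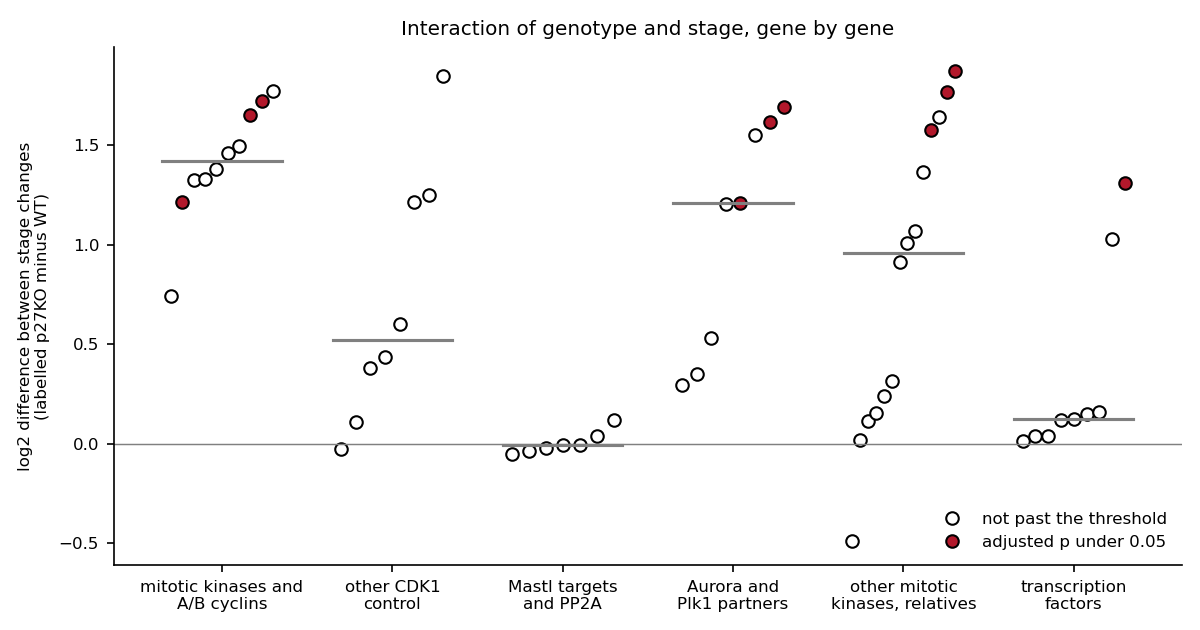
Interaction of genotype and stage for each gene, as the log2 stage change in the libraries labelled p27KO minus that in WT, by role, with grey bars at the medians. Red points passed the threshold in edgeR's quasi-likelihood test (3 of 10 members and 7 genes of the other lists), and the genes around PP2A lie near 0, with a median of -0.01.

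For comparison, all 25 DNA replication genes fell in both genotypes, with medians of -2.95 in WT and -2.39 in the libraries labelled p27KO. Their median interaction was 0.53, against 1.42 for the mitotic members, and 2 of 25 passed the threshold. It was positive for 22 of the 25, with an unadjusted p under 0.05 by edgeR for 14, and DESeq2 called 6. In neurospheres the estimate was already higher under the p27KO label for 24 of the 25, though 0 were called. The median there was 0.15, against 0.02 for the members. The difference between the lists was not tested. Of the 25, 12 were higher at 2 + 1 DIV in the libraries labelled p27KO, against 1.91% of all tested genes. Their median difference was 0.67.

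The genes outside the members whose profile over the 10 libraries was most like the members' mean, by Pearson's r on standardised log2 CPM, were Bub1b (r = 0.999), a checkpoint pseudokinase, Dlgap5 (0.999) and Cdca8 (0.999), spindle and passenger proteins, Cenpa (0.998), the centromeric histone, and Cdc20 (0.998), an activator of the anaphase-promoting complex. These 10 libraries fall into 2 stages, which by themselves give a high r to any gene that fell. Bub1b went from 123 normalized CPM in WT neurospheres to 16.6 at 2 + 1 DIV, and from 121 to 41.7 in the libraries labelled p27KO. Of the members themselves, Aurkb (0.999), Cdk1 (0.998) and Plk1 (0.998) ranked highest, and Ccnb2 (0.981) lowest, behind Wee1 (0.987) and Nek2 (0.988). Each member is part of the mean it was compared with, which by itself favours a high r. The values of members and of other genes are therefore not comparable.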

How the data were processed

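Bulk RNA-seq was carried out on 10 libraries. According to the methods, cDNA was made with the Ovation system, and reads were aligned with STAR to the Ensembl mouse transcriptome (GRCm38 in the submitters' processing notes) and counted per gene with RSEM. The authors deposited the estimated counts unnormalized and in whole numbers, and per the labels every column belonged to 1 sample. The use of strand in counting is not given in the sources used here.

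A gene was dropped, as in the study, when 4 or more of the 10 libraries had under 1 CPM, which left 12859. TMM scaling preceded a fit of all libraries in 4 groups with edgeR 4.0.16 (robust quasi-likelihood, R 4.3.3). Tests were two-sided, with Benjamini-Hochberg adjustment over all genes tested and a threshold of 0.05. The study used DESeq2, which was an alternative here (1.42.0). Normalized CPM are counts over the total of the tested genes times the TMM factor. With these totals, precision is set mainly by the spread between 2 or 3 libraries. Ratios used counts plus 0.5, and likeness log2 of CPM plus 0.5. Near-identical copies were sought with BLAST 2.17.0 (at least 95% identity over 150 bases) among GENCODE transcripts. The edgeR and DESeq2 fits of the stage changes and the interaction were tested on simulated counts, drawn without pairing of libraries. The other steps were not.

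The members, the gene lists and the markers were chosen with earlier results of these data known. The genes named from a list are those past the threshold in the interaction, those with the largest WT change up to 4 per list, and any that moved against the members. Alternatives were other scalings and filters, DESeq2, fits of fewer groups, the replicate number as a block, and each library left out. Same-numbered WT libraries of both stages deviated together (r = 0.248, 0.301 and 0.395 across genes, against -0.221 to -0.0874 for other pairs). Those labelled p27KO did not (r = -0.138). The main fits and the main ratio test did not use the replicate number. It entered only in alternatives, as a block or as a pairing of WT libraries.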

Additional observations from a re-analysis of the deposited data

Results flagged for a closer look

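The change between stages differed between the genotypes for 10 genes of the members and the lists of related genes. The test was the interaction in edgeR (quasi-likelihood, Benjamini-Hochberg adjusted), and each gene had a smaller fall in the libraries labelled p27KO. Of all tested genes, 0.389% passed in this direction, and of the 25 DNA replication genes, followed for comparison, 2 passed. Of the 10 members, 3 passed, Ccna2 (difference of 1.72 on the log2 scale), Aurkb (1.65) and Mastl (1.21). Of 8 partners of the Aurora kinases and Plk1, 3 passed, Birc5 (1.62), Cdca8 (1.69) and Incenp (1.21). Of 14 other mitotic kinases, 3 passed, Bub1 (1.88), Pbk (1.77) and Ttk (1.58), and of 9 transcription factor genes 1, Foxm1 (1.31). The calls of these 10 genes rest on the way the libraries are fitted. With the replicate number as a block within each genotype, only Mastl, Bub1 and Ttk passed, which is 1 of the 3 members and 2 of the 7 other genes. Without any 1 of the WT PRO or labelled p27KO libraries, 0 of the members passed, and of the 7 others 0 passed, except for Pbk without WT PRO replicate 1. Sex-linked transcripts moved with the genotype label, and their part in these differences cannot be told apart from that of the genotype.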

How the results depend on the processing

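The fall of the 10 members kept its direction in every alternative run, with 10 past the threshold in WT in each and 9 or 10 in the libraries labelled p27KO, where Ccnb2 was the member lost. The median WT fall lay between -3.54 and -3.08 with single libraries left out, the latter without WT DIFF replicate 2. The count of members past the threshold in the interaction was the least stable value. It was 3, and 9 with DESeq2, 1 with the replicate block within genotype, and 0 to 7 with single libraries left out, while the median interaction lay between 1.18 and 1.71. Where a library labelled p27KO was left out, the lone sample of its group was assumed to vary like the other groups. At 2 + 1 DIV the count of members higher in the libraries labelled p27KO was 9, and 1 in a fit of only the groups compared, 7 with no filter, and 3 to 10 with single libraries left out, with medians from 1.20 to 1.69. With the replicate block, 3 members passed in the interaction and 9 at 2 + 1 DIV, and apart from Cdk1 and Aurkb in the interaction this block changed no call of a member. With the numbers of the libraries labelled p27KO crossed, an alternative chosen after seeing the data, these counts were 2 and 9. The neurosphere median changed sign with library totals (-0.01), and no member was called there in any alternative. The 3 shifts in ratios kept their direction without any single library. With WT numbers paired in the permutation, which is a replicate block chosen after seeing the data, the shifts of 0.86 (Wee1 over Cdk1), 0.63 (Aurka over Aurkb) and -0.52 (Ccnb1 over Ccnb2) did not pass after adjustment. Each had the smallest p that the 48 arrangements allow, and with the fourth ratio above it a larger shift could not have passed either. This alternative therefore cannot decide whether the shifts hold. The cause of these changes was not tested.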
